A study of Rattus norvegicus with 18 samples.

Results

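Sfrp1, its secreted relatives and a small set of WNT antagonists and targets were followed through rat bone marrow stromal cultures. The 9 genes were Sfrp1, Sfrp2, Sfrp4, Frzb, Wif1, Dkk3, Wnt5a, Lef1 and Axin2. A probe set, the group of short probes that measures 1 transcript, was taken where the array annotation gave it exactly 1 of these symbols. The 9 are part of 14218 genes with a probe set of their own on the array. They had 18 of its 31099 probe sets, and 11 of the 18 passed a filter on low intensity, with at least 1 for each gene. The genes were selected on log2 intensities of these same arrays, with the 2-month diet difference of Sfrp1 in view. Their 2-month levels are therefore described and not tested.

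The cultures were mesenchymal stem cells of the marrow, obtained by plating whole marrow on plastic, from Sprague-Dawley rats that were 6 weeks old when feeding began. The normal diet (ND) was 100% basal feed, and the high-fat diet (HFD) was 60% basal feed with 20% lard, 10% sucrose and 10% egg yolk powder. Cells were taken after 1, 2 or 4 months on either diet, which makes 6 groups of 3 arrays, and no group carried an allele or a drug. The sample labels give passage 3 and the series description passage 1, and the age field of the labels repeats the feeding time. The description gives 3 samples per group without saying how many animals each culture came from, so p-values measure only the spread between these arrays.

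WNT proteins are secreted signals that bind Frizzled receptors with an LRP coreceptor. In the canonical branch this stops the destruction of beta-catenin, which then works with TCF and LEF factors in the nucleus. Secreted Frizzled-related proteins and Wif1 bind WNT ligands outside the cell, the Dickkopf family acts at the coreceptor, and Axin2 is a feedback inhibitor that is itself a widely used canonical target. In marrow stroma the canonical branch is known for favouring osteoblast over adipocyte fate, and Sfrp1 is known as a restraint on bone formation.

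TCF and LEF factors are known to bind DNA at CTTTGAT and the close relative CTTTGTT. The promoter table of RefSeq (GRCr8) held 6 of the 9 genes, namely Sfrp2, Frzb, Wif1, Wnt5a, Lef1 and Axin2. Both strands of the 250 bases before each start were searched. CTTTGAT was found in 1 of the 6, Axin2, and in 3.15% of 33469 promoters of the same length. CTTTGTT was found in 0 of the 6 and in 5.14% of all promoters, and 8.11% held either motif. The Axin2 match is shown because Axin2 is the feedback target of the set. It lies 132 bases before the tabulated start, on the plus strand at chr10:94398642-94398670, with the motif in capitals. That start lies inside the annotated span of the gene.
Axin2: ttactttcttgCTTTGATgttgggtagat
The match describes the letters only, and binding was not measured.

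Stromal markers were present in every culture. The mean of 10 of them ran from 9.76 to 10.19 log2 units over the 18 arrays, but single markers varied more. Thy1 read between 11.71 and 12.13 and the collagen Col1a2 between 12.89 and 13.26, while the ecto-enzyme Nt5e ran from 5.85 to 8.66 and the adhesion molecule Vcam1, not in the mean, from 2.56 to 6.77. The endothelial markers Pecam1, Kdr, Tek and Vwf were all below the intensity filter. Macrophage markers varied widely: the mean of 16 of them ran from 4.39 on ND 1-month replicate 3 to 10.05 on ND 4-month replicate 2. At 1 month that mean was 6.56 ± 2.57 in the ND group and 7.77 ± 0.87 in the HFD group (SD, n = 3), and in the same order 8.41 ± 2.03 and 6.74 ± 1.35 at 2 months, and 8.68 ± 1.20 and 9.36 ± 0.24 at 4 months. In cultures measured in bulk, fewer cells of a type and less RNA per cell cannot be told apart.

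Sfrp1, a secreted Frizzled-related protein, stood far lower in HFD than in ND cultures at 2 months, and at 1 and 4 months the diets overlapped. On its brightest probe set, 1371861_at, the 2-month ND arrays read 11.08, 10.37 and 11.02 log2 units. The 2-month HFD arrays read 6.36, 6.51 and 7.91. Every 2-month HFD array lay below each of the other 15 arrays, and the highest of the 3 was replicate 3. The group means were 10.82 ± 0.40 (SD, n = 3) in ND and 6.92 ± 0.85 in HFD, a difference of -3.90 log2 units or 14.9-fold in linear intensity. In linear units the geometric means were 1813 and 122.

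Other cell type markers separated the same 2-month groups, and apart from a fit with the macrophage marker mean as a covariate their part in the Sfrp1 difference was not tested. Of 11 stromal markers 2 were lower and 1 higher in HFD with no overlap, where 12.9% and 11.8% of all tested probe sets separated in these directions. The growth factor receptor Pdgfra read 11.29, 10.85 and 10.67 in ND and 9.89, 9.80 and 9.88 in HFD, below all 15 other arrays, and the mesenchymal factor Prrx1 differed by -0.66. Of 3 tested osteoblast markers 2, the bone matrix proteins Ibsp and Spp1, were higher in HFD. Ibsp read 4.90, 6.42 and 6.37 in ND and 9.59, 8.80 and 7.14 in HFD, and Spp1 differed by 1.24. Alpl overlapped between the diets, and the osteoblast marker Bglap was below the intensity filter. Of 6 adipocyte markers 2 were lower, the adipogenic factor Cebpa (7.71, 7.49 and 7.64 in ND and 5.91, 5.46 and 6.51 in HFD) and the lipase Lpl (difference -1.69). Of 19 macrophage markers 1, Adgre1, was lower with no overlap. The mean was lower in HFD for all 19, with differences from -0.48 (Lyz2) to -3.36 (Adgre1). It was also lower for all 6 adipocyte markers, from -0.39 (Adipoq) to -2.40 (Fabp4). The cartilage proteoglycan Acan read 9.07 on HFD 2-month replicate 1 and no more than 5.31 on any other array. The chondrocyte markers Col2a1 and Comp read 3.15 and 2.98 on that array, and both were below the intensity filter.

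The other feeding times put the 2-month HFD level in context. At 1 month Sfrp1 read 10.08, 11.25 and 10.21 in ND and 10.08, 9.51 and 10.27 in HFD. At 4 months it read 9.12, 9.61 and 8.91 in ND and 10.08, 10.17 and 8.63 in HFD. From lowest to highest, the group means ran from HFD at 2 months (6.92) over ND at 4 months (9.22 ± 0.36), HFD at 4 months (9.63 ± 0.87), HFD at 1 month (9.95 ± 0.39) and ND at 1 month (10.51 ± 0.64) to ND at 2 months (10.82). The last 5 formed a ladder whose neighbours overlapped, while the first stood apart. Within HFD the difference was -3.03 log2 units from 1 to 2 months and 2.70 from 2 to 4 months. These 2 steps share the 2-month arrays and are given without a test.

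**Figure D1:**
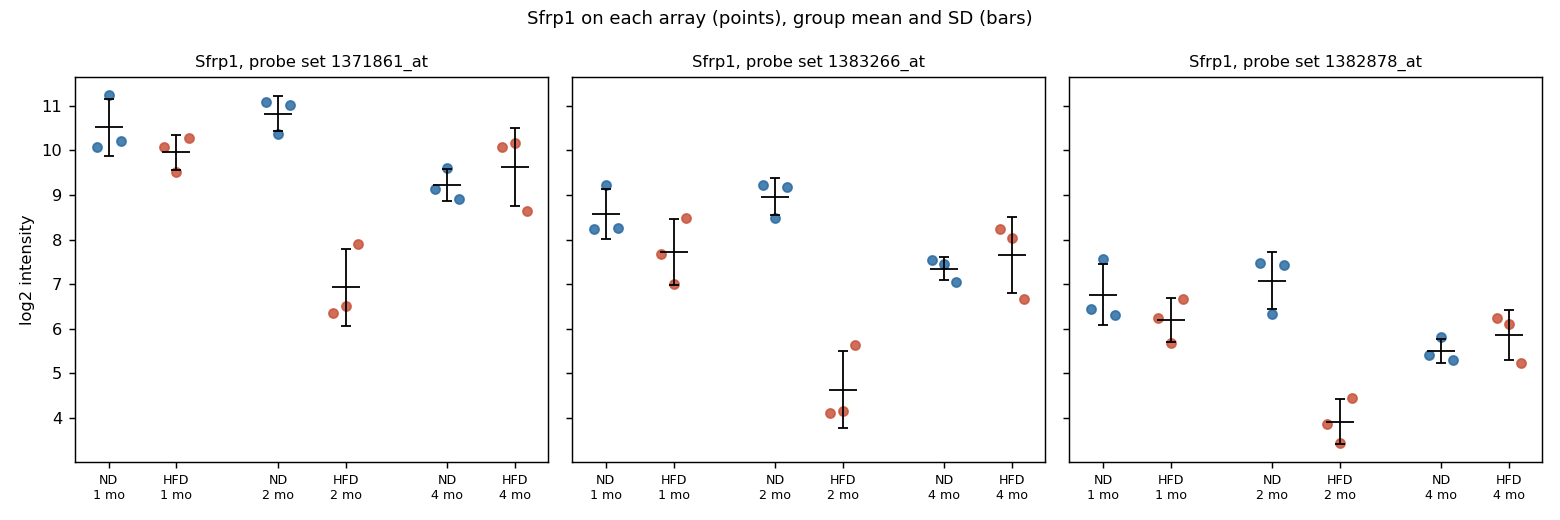
Log2 intensity of the 3 Sfrp1 probe sets on each array (points; blue ND, red HFD), with group means and SD (n = 3), by diet and months of feeding. On 1371861_at the 2-month HFD arrays sit between 6.36 and 7.91 and all other arrays between 8.63 and 11.25, and the other probe sets show the same low group.

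The other Sfrp1 probe sets showed the same low group. Probe set 1383266_at averaged 8.96 ± 0.42 (SD, n = 3) in 2-month ND and 4.64 ± 0.87 in 2-month HFD cultures, a difference of -4.33. Probe set 1382878_at averaged 7.08 ± 0.64 and 3.92 ± 0.51, a difference of -3.16. All 3 probe sets measure the same gene in the same RNA, and their pairwise correlations over the 18 arrays were 0.979, 0.989 and 0.974. With the mean of the macrophage markers as a covariate the 2-month difference of 1371861_at was -3.86, and leaving out 1 array at a time kept it between -4.39 and -3.62.

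Outside the 2-month arrays, Sfrp1 passed no test with equal array weights. HFD minus ND was -0.56 ± 0.47 (SE, 95% interval -1.56 to 0.44; limma adjusted p = 0.749) at 1 month and 0.41 ± 0.47 (-0.59 to 1.42; limma adjusted p = 0.999) at 4 months. Both intervals include 0, and whether the diet difference at 2 months differs from these was not tested. Averaged over 1 and 4 months the diet difference was -0.07 ± 0.33 (limma adjusted p = 0.967). An exact permutation test within feeding times gave a two-sided p of 0.86 over 400 arrangements, of which the smallest possible p is 0.005. In ND, 4 minus 1 month was -1.30 ± 0.47 (SE, limma adjusted p = 0.424), with every 4-month array below every 1-month array. In HFD the difference was -0.32 ± 0.47 (adjusted p = 0.873), and the mean of both diets was -0.81 ± 0.33 (adjusted p = 0.279). With array weights, which called 8.16% of all tested probe sets there, the last difference passed on probe set 1382878_at (-0.94, limma adjusted p = 0.0481). On 1371861_at it did not pass (-0.94, limma adjusted p = 0.0653).

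Among the relatives of Sfrp1, Frzb also stood lower in HFD at 2 months, and Sfrp2 and Sfrp4 overlapped between the diets there. Sfrp2, another secreted Frizzled-related protein, ran from 3.47 to 4.13 log2 units, close to the filter limit of 3.22. Its group means lay between 3.71 and 3.88, and its diet difference was 0.05 ± 0.17 (SE) at 1 month and -0.01 ± 0.17 at 4 months, with limma adjusted p-values of 0.951 and 0.999. Its second probe set, 1390119_at, read 2.10 to 3.07 and was too dim to test. Nothing in Sfrp2 exceeded the spread between replicates.

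Sfrp4, a secreted Frizzled-related protein linked to bone remodelling, was well measured on probe set 1368394_at but varied between cultures of the same group. Its ND 1-month value rests on 2 arrays, 8.23 and 6.93, since the third has no value for it in the deposited table. The 2-month arrays read 9.77, 8.93 and 7.92 in ND and 7.90, 8.37 and 8.86 in HFD, so the diets overlapped. Group means were highest in 2-month ND cultures (8.87 ± 0.93, SD, n = 3) and lay between 7.58 and 8.38 in the others. HFD minus ND was 0.55 ± 0.47 (SE) at 1 month and 0.39 ± 0.42 at 4 months (limma adjusted p = 0.754 and 0.999). Sfrp4 moved with the macrophage markers, with a correlation of 0.64 over 17 arrays and 0.75 after group means were taken out. With that marker mean as a covariate its difference was -0.41 at 1 month and 0.11 at 2 months, each of opposite sign to the value without it. The second probe set, 1388021_at, read 2.63 to 3.20 and was not tested.

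Frzb, also called Sfrp3, is a secreted antagonist first described in cartilage. Probe set 1373615_at read 4.97, 4.03 and 4.10 in 2-month ND and 3.35, 2.90 and 3.14 in 2-month HFD cultures. The ND arrays were above all 15 others, and replicate 1 was the highest. The means were 4.37 ± 0.52 and 3.13 ± 0.23 (SD, n = 3), a difference of -1.24, or -0.94 without ND 2-month replicate 1. The signal is faint: the mean over all arrays was 3.45, against the filter limit of 3.22, and the HFD mean lay under it. The dimmer probe set 1375961_at read 4.79 on ND 2-month replicate 1 and no more than 3.32 on any other array. At 1 month the diet difference was 0.06 ± 0.23 (SE) and at 4 months 0.34 ± 0.23 (limma adjusted p = 0.963 and 0.999), where all 3 HFD arrays read 3.31 to 3.64 and the ND arrays 2.95 to 3.28.

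Wif1, which binds WNT ligands through a domain unrelated to Frizzled, stayed between 4.12 and 5.49 log2 units. The highest and the second lowest of the 18 arrays were both HFD 4-month cultures, 5.49 and 4.18. Diet differences were -0.07 ± 0.29 (SE) at 1 month and -0.03 ± 0.29 at 4 months, with limma adjusted p-values of 0.963 and 0.999. The 4-month means, 4.87 ± 0.29 in ND and 4.84 ± 0.66 in HFD (SD, n = 3), were the highest pair, but 4 minus 1 month averaged over diets was 0.32 ± 0.20 (SE, limma adjusted p = 0.495).

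Dkk3, a divergent member of the Dickkopf family that does not act as a classical coreceptor antagonist, read lower at 4 months than at 1 month on both diets, without passing the test. On probe set 1370328_at the 1-month arrays read 9.54, 9.51 and 10.47 in ND and 11.00, 9.11 and 10.27 in HFD. The 4-month arrays read 8.58, 8.77 and 7.70 in ND and 9.05, 8.54 and 8.82 in HFD. Every 4-month array lay below every 1-month array of its diet, a pattern that 1.95% of all tested probe sets shared. The difference was -1.49 ± 0.42 (SE) in ND and -1.33 ± 0.42 in HFD, with limma adjusted p-values of 0.369 and 0.458. The mean of both, -1.41 ± 0.30, had the lowest adjusted p of any member in any tested comparison, 0.083, and did not pass. It passed in limma with array weights (-1.57, adjusted p = 0.0053), which called 8.16% of all tested probe sets against 0.12% with equal weights. It also passed in limma with HFD 1-month replicate 2 left out (-1.66, adjusted p = 0.0134). With ND 2-month replicate 3 and ND 1-month replicate 1 both left out it passed as well (limma adjusted p = 0.0309). The share of all probe sets called with these arrays left out is not given here.

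At 2 months Dkk3 read 9.14, 9.15 and 9.37 in ND and 10.93, 10.29 and 9.96 in HFD. The arrays did not overlap, and the means, 9.22 ± 0.13 and 10.39 ± 0.50 (SD, n = 3), differed by 1.18 with HFD higher. HFD was also higher by 0.29 ± 0.42 (SE) at 1 month and 0.45 ± 0.42 at 4 months, within the spread of the arrays (limma adjusted p = 0.882 and 0.999). Dkk3 correlated with the macrophage marker mean at -0.60 and with the adipocyte marker mean at 0.44 over the 18 arrays, and at -0.40 and 0.72 within groups. Its 4 minus 1 month mean with the macrophage covariate was -1.14 (limma adjusted p = 0.203). The part of either marker list in the Dkk3 values was not tested further. The other 3 Dkk3 probe sets read 1.81 to 3.47 and were too dim to test.

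Wnt5a, the ligand of the set and the best known trigger of the non-canonical branch, had the widest spread within groups. In HFD cultures it read 7.77, 10.57 and 7.29 at 1 month. At 2 months it read 9.35, 10.42 and 8.16 in ND and 6.78, 8.14 and 8.75 in HFD. The diets overlapped at all 3 times. The difference was -0.44 ± 0.78 (SE) at 1 month and -0.53 ± 0.78 at 4 months (limma adjusted p = 0.907 and 0.999), and -1.42 at 2 months. The 1-month difference turned on single arrays: it was -1.46 with HFD 1-month replicate 2 left out and 0.18 with HFD 1-month replicate 3 left out. Wnt5a varied with the macrophage marker mean (correlation 0.62 over the 18 arrays, 0.60 within groups) and opposite to Dkk3 (-0.80 both ways). It correlated with the stromal marker mean at 0.56 (0.54 within groups) and with the adipocyte marker mean at -0.43 (-0.72 within groups). The part of these lists in the Wnt5a values was not tested further. With the macrophage covariate the 2-month difference was -0.76.

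Axin2, the feedback target, was at modest intensity and tightly replicated. At 1 month it read 5.25, 5.12 and 4.71 in ND and 4.57, 4.53 and 4.39 in HFD. At 2 months it read 4.77, 4.88 and 4.60 in ND and 5.35, 5.01 and 5.17 in HFD, and at 4 months 4.45, 4.30 and 4.59 in ND and 4.70, 4.67 and 4.61 in HFD. HFD arrays thus lay wholly below ND arrays at 1 month and wholly above them at the later times. The difference was -0.53 ± 0.14 (SE; limma adjusted p = 0.221) at 1 month, 0.43 at 2 months and 0.21 ± 0.14 (adjusted p = 0.999) at 4 months. The change of the diet difference from 1 to 4 months was 0.74 ± 0.19, with an unadjusted p of 0.002 and a limma adjusted p of 0.9995, so it did not pass. In ND, 4 minus 1 month was -0.58 ± 0.14 (adjusted p = 0.296) with no overlap, and in HFD 0.17 ± 0.14 (adjusted p = 0.769), also with no overlap.

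Lef1, the nuclear partner of beta-catenin, was low and stood higher in HFD at 2 months. Probe set 1383785_at read 3.33, 3.37 and 3.69 in 2-month ND and 4.87, 4.74 and 3.84 in 2-month HFD cultures. HFD replicate 3, which had the highest Sfrp1 and the highest macrophage marker mean (8.09) of its group, had the lowest Lef1. The means, 3.46 ± 0.20 and 4.48 ± 0.56 (SD, n = 3), differed by 1.02. With the macrophage covariate the 2-month difference was 0.79. Lef1 correlated with the macrophage marker mean at -0.57 over the 18 arrays and -0.61 within groups. At 1 and 4 months the diet differences were 0.03 ± 0.28 (SE) and 0.05 ± 0.28, with limma adjusted p-values of 0.984 and 0.999. The second probe set, 1370138_at, read 2.25 to 3.03 and was not tested.

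**Figure D2:**
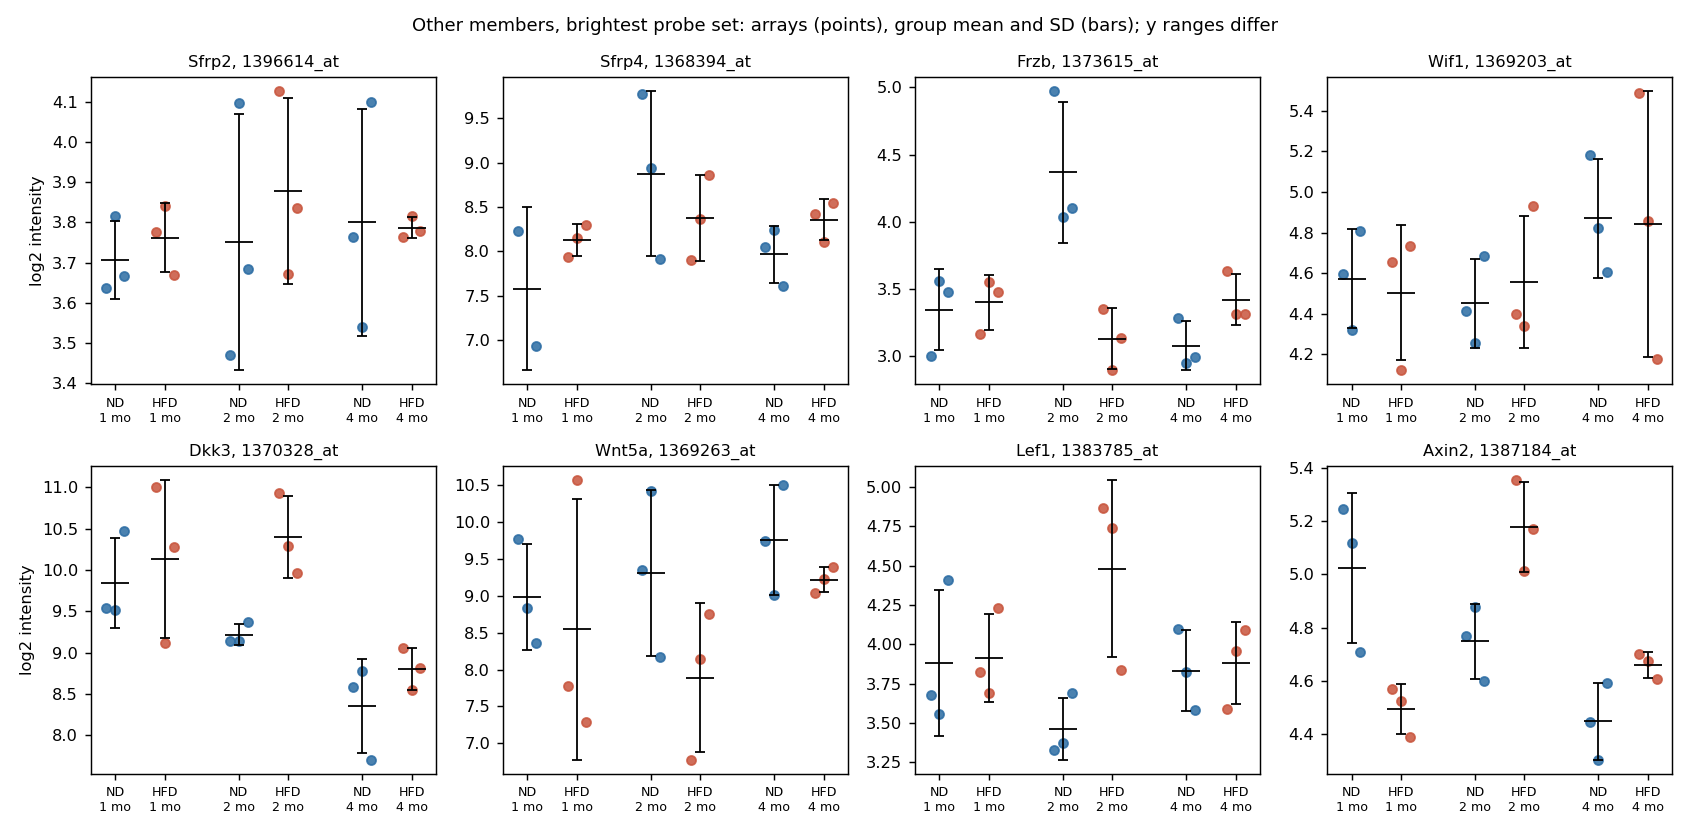
Log2 intensity of the brightest probe set of the other 8 genes on each array (points; blue ND, red HFD), with group means and SD (n = 3, and n = 2 for Sfrp4 in ND at 1 month); the y ranges differ between panels. Frzb is highest in 2-month ND, Dkk3 is lowest at 4 months, and the Axin2 diets do not overlap at any time.

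Counted together, the 11 probe sets gave no call in any comparison that was open to a test. At 1 month 0 of 11 passed in limma, with 0% of all 21729 tested probe sets, and 1 had an unadjusted p under 0.05, beside 9.77% of all. At 4 months 0 of 11 passed (0% of all), and 0 had an unadjusted p under 0.05 (3.73% of all). For the mean of 1 and 4 months 0 of 11 passed (0.0368% of all), with 0 at an unadjusted p under 0.05 (10.6% of all). For 4 minus 1 month 0 of 11 passed in ND and 0 in HFD (0% of all in each), with 5 and 1 at an unadjusted p under 0.05 in limma (9.39% and 7.92% of all). For the mean of both diets 0 of 11 passed (0.12% of all) and 3 had an unadjusted p under 0.05 (14.5% of all). The diet difference at 4 against 1 month also gave 0 of 11 (0% of all), with 1, Axin2, at an unadjusted p under 0.05 (3.25% of all).

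At 2 months, where the genes were chosen with the result known, the arrays of the diets did not overlap for 7 of 11. HFD was lower for the 3 Sfrp1 probe sets and Frzb (12.9% of all tested probe sets) and higher for Dkk3, Lef1 and Axin2 (11.8% of all), and nothing is read from these shares. At 1 month only Axin2 separated, lower in HFD (10.7% of all), and at 4 months Frzb and Axin2 separated with HFD higher (3.81% of all). In ND from 1 to 4 months 5 of 11 separated downward (8.51% of all), the 3 Sfrp1 probe sets, Dkk3 and Axin2. In HFD Dkk3 separated downward (8.03%) and Axin2 upward (8.64%). The members' median difference was -0.07 at 1 month, -0.50 at 2 months and 0.30 at 4 months, where all tested probe sets had -0.06, -0.003 and -0.007. The diets at each time share no arrays with other times, and the 3 Sfrp1 probe sets count 3 times in these figures.

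**Figure D3:**
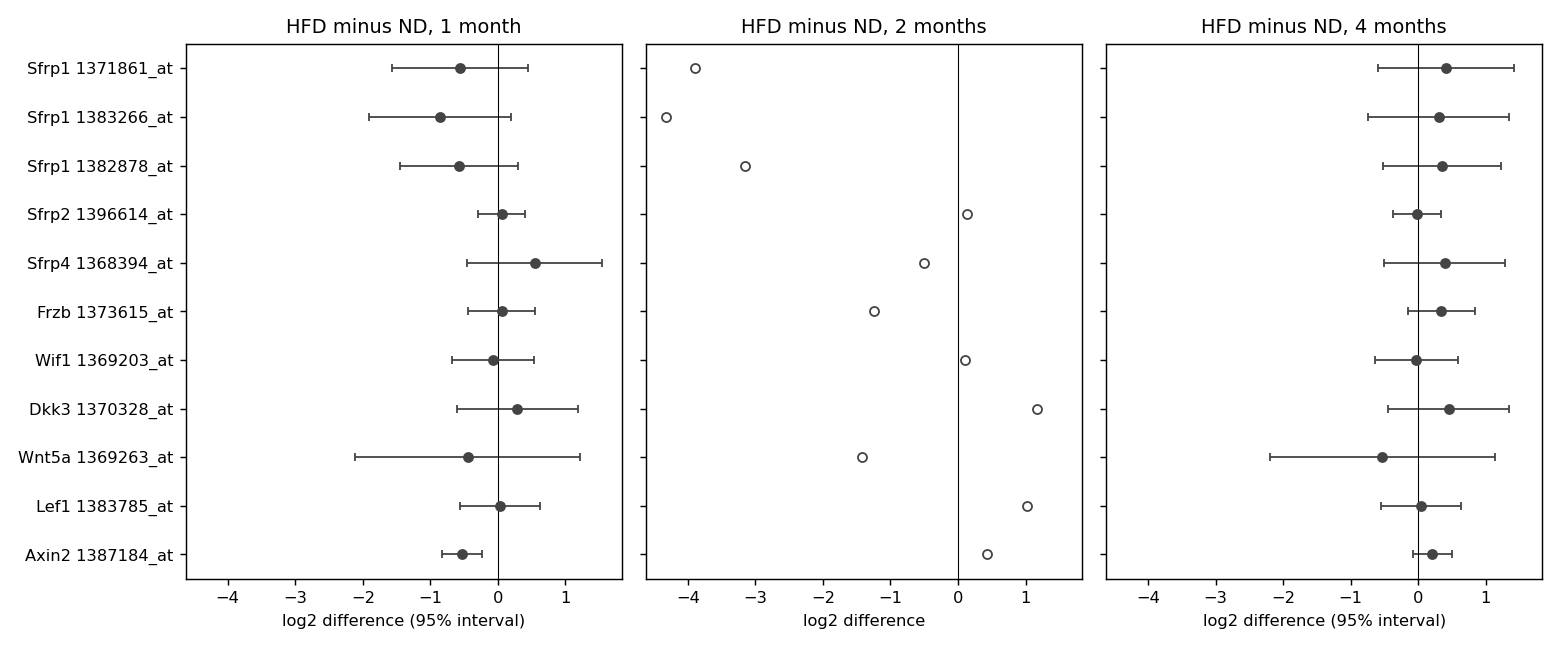
HFD minus ND log2 difference of the 11 tested probe sets at 1, 2 and 4 months; bars at 1 and 4 months are 95% intervals of the limma fit, and the 2-month points (open) have none because the genes were chosen with that result known. Sfrp1 lies between -4.33 and -3.16 at 2 months and between -0.85 and 0.41 at the other times.

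Across the 18 arrays Sfrp1 was most opposed to Lef1 among the members, with a correlation of -0.73, and of -0.47 after the group means were taken out. It correlated with Frzb at 0.54 (0.24 within groups), with Axin2 at -0.37 (-0.09) and with Wif1 at 0.12 (0.59). With the marker means, Sfrp1 correlated at 0.18 (0.06) for macrophage, 0.35 (-0.58) for stromal and 0.46 (0.20) for adipocyte markers. These values describe 18 cultures of which 3 lie far below the rest in Sfrp1, and the pooled value of a pair mostly tells whether the partner also differed in those 3.

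The genes most like Sfrp1 were sought among 10692 named genes with a value on all 18 arrays, by Pearson correlation with 1371861_at. The highest were the fibril-associated collagen Col14a1 (0.94; 0.82 within groups), the chemokine Cxcl12 (0.92; 0.58), the scavenger receptors Colec12 (0.91; 0.82) and Scara5 (0.90; 0.51), the complement protease C1r (0.90; 0.73) and Lrrc75a (0.89; 0.70). All 6 had their lowest group mean in 2-month HFD cultures, which follows largely from a choice by this correlation. Col14a1 averaged 11.36 log2 units in ND and 8.12 in HFD at 2 months, and Cxcl12 12.13 and 8.94. Scara5 averaged 9.87 and 7.66 in the same groups. The rank order by correlation within groups differed: Col14a1 and Colec12 were 13th and 15th of the 10692. C1r was 94th, Lrrc75a 134th, Cxcl12 472nd and Scara5 811th.

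The most opposed genes were the inositol phosphate kinase Ppip5k1 (-0.96; -0.79 within groups), the ubiquitin ligase Rnf169 (-0.95; -0.89), the desmosome protein Pkp2 (-0.90; -0.62), the microtubule protein Map6 (-0.89; -0.82), the prion-like Prnd (-0.89; -0.86) and skeletal muscle actin Acta1 (-0.88; -0.82). All 6 had their highest mean in 2-month HFD cultures, which again follows largely from the choice. Pkp2 averaged 4.01 in ND and 6.96 in HFD at 2 months, Acta1 6.79 and 9.38, and Rnf169 6.99 and 7.56. Among the members and pathway genes, casein kinase Csnk1a1 (0.74; 0.67 within groups), beta-catenin Ctnnb1 (0.72; 0.15) and its inhibitor Ctnnbip1 (0.61; 0.16) were the most like Sfrp1. The corepressor Tle1 (-0.77; -0.63) and the ubiquitin ligase Znrf3 (-0.74; 0.24) were the most opposed, Znrf3 with the other sign within groups.

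**Figure D4:**
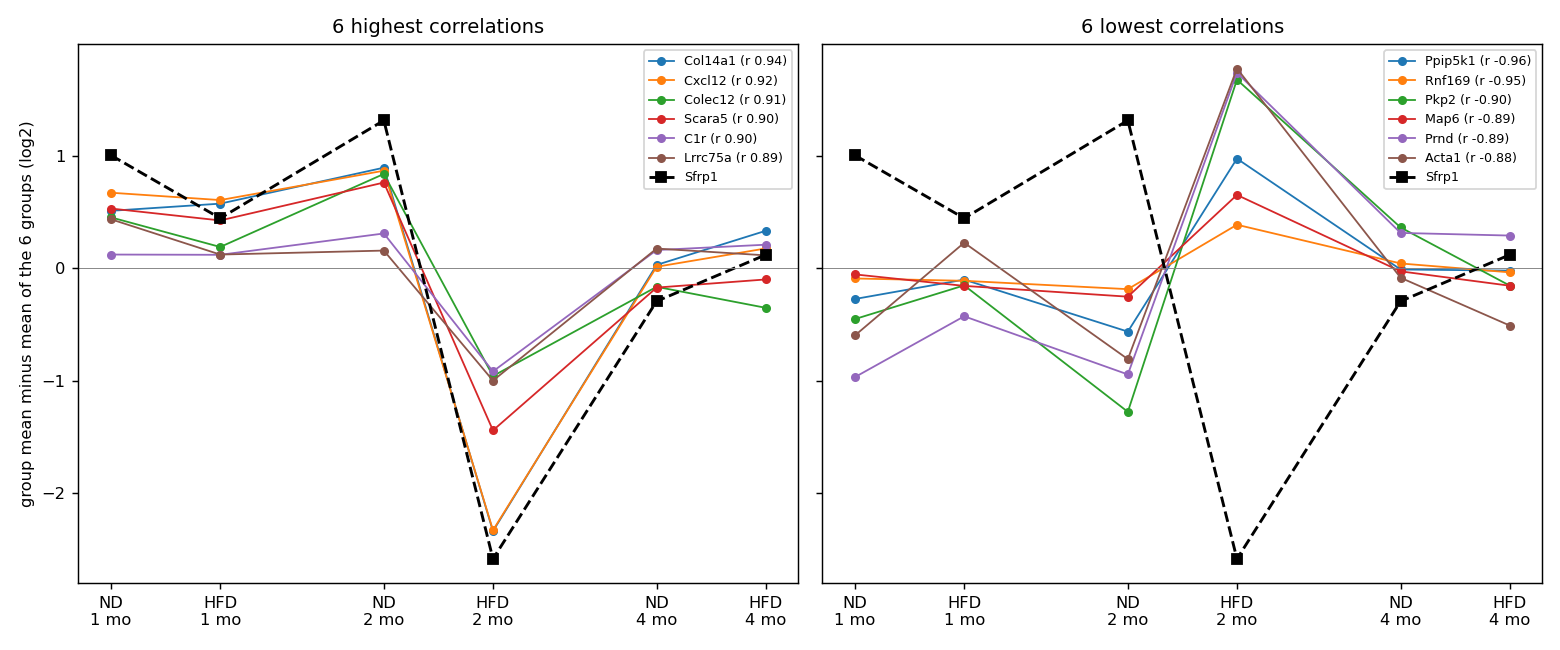
Group means of Sfrp1 (dashed, squares) and of the 6 genes with the highest (left) and lowest (right) correlation to it over 18 arrays, each minus its own mean over the 6 groups, in log2 units. The like genes share the low point in 2-month HFD and the opposed genes have their high point there, as the choice by correlation favours. The Col14a1 and Cxcl12 lines nearly coincide at that point.

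Other genes of the WNT pathway were read from a list of 132, of which 108 were on the array and 95 were tested, each on its brightest probe set. The list was chosen with earlier results of these data known, so its 2-month p-values do not stand as an independent test. At 2 months 3 of 95 rose and 1 fell in HFD (4 calls beside 2.54% of all tested probe sets), 91 did not pass, 16 had an unadjusted p under 0.05 (20.8% of all), and the median was 0.04 where all probe sets had -0.003. Among 10 tested ligand genes Wnt5b, a non-canonical ligand close to Wnt5a, rose by 0.87 ± 0.16 log2 units (SE, limma adjusted p = 0.0175). It read 4.78, 4.52 and 4.84 in ND and 5.65, 5.55 and 5.54 in HFD, and every 2-month HFD array was above all others in the study. None of the 10 receptors and coreceptors passed in limma, and 1 had an unadjusted p under 0.05.

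Among 9 other secreted or surface modulators 1 rose and 1 fell at 2 months. Znrf3, a membrane ubiquitin ligase that removes Frizzled from the surface, rose by 0.61 ± 0.12 (SE, limma adjusted p = 0.0179), from 3.00, 2.90 and 3.18 in ND to 3.64, 3.48 and 3.77 in HFD, at intensities near the filter limit. Tpbg, a surface glycoprotein that inhibits canonical signalling at the coreceptor, fell by 1.08 ± 0.21 (limma adjusted p = 0.0209). It read 7.77, 7.74 and 7.77 in ND and 6.57, 6.65 and 6.83 in HFD. Lgr5, an R-spondin receptor, had the largest difference of the 95, -2.60 ± 1.00, and did not pass (limma adjusted p = 0.167). Its HFD arrays read 4.89, 4.98 and 8.03. The third, with the highest Sfrp1 and the highest macrophage marker mean of its group, lay just under the lowest ND array at 8.04.

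Of 13 nuclear factors 1 rose at 2 months: Tle1, a Groucho-type corepressor of TCF and LEF factors, by 0.87 ± 0.21 (SE, limma adjusted p = 0.0463). It read 4.58, 4.95 and 4.55 in ND and 5.80, 5.71 and 5.17 in HFD. This call was the weakest of the 4. It was lost with the replicate number as a block (limma adjusted p = 0.0636), without the intensity filter (0.0523) and with array medians centred (0.0538). The macrophage covariate (limma adjusted p = 0.0539) and a fit of the contrast arrays alone (0.159) also lost it. So did leaving out many of the single arrays, some outside the contrast, such as HFD 4-month replicate 1 (limma adjusted p = 0.0599). None of 17 genes of intracellular transduction, 16 transcriptional targets or 20 genes of the planar polarity and calcium branch passed in limma, where 6, 1 and 2 had an unadjusted p under 0.05. Of the 16 targets 10 had a positive difference, and the share of positive differences over all probe sets is not given here. The median of the targets was 0.17, where all tested probe sets had -0.003. In limma 20.8% of all tested probe sets had an unadjusted p under 0.05. The cell cycle gene Myc, at -0.72 ± 0.46, and the decoy receptor gene Tnfrsf11b, at 1.13 ± 0.58, pointed in opposite directions. The differences of the 4 genes kept their size when arrays were left out, from 0.77 to 0.93 for Wnt5b, 0.53 to 0.68 for Znrf3, 0.75 to 1.06 for Tle1 and -1.15 to -1.02 for Tpbg. The count of calls did not: it was 0 with ND 2-month replicate 1, ND 2-month replicate 2 or HFD 2-month replicate 1 left out. It was 1 when HFD 2-month replicate 2 was left out and 6 when replicate 3 of that group was.

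**Figure D5:**
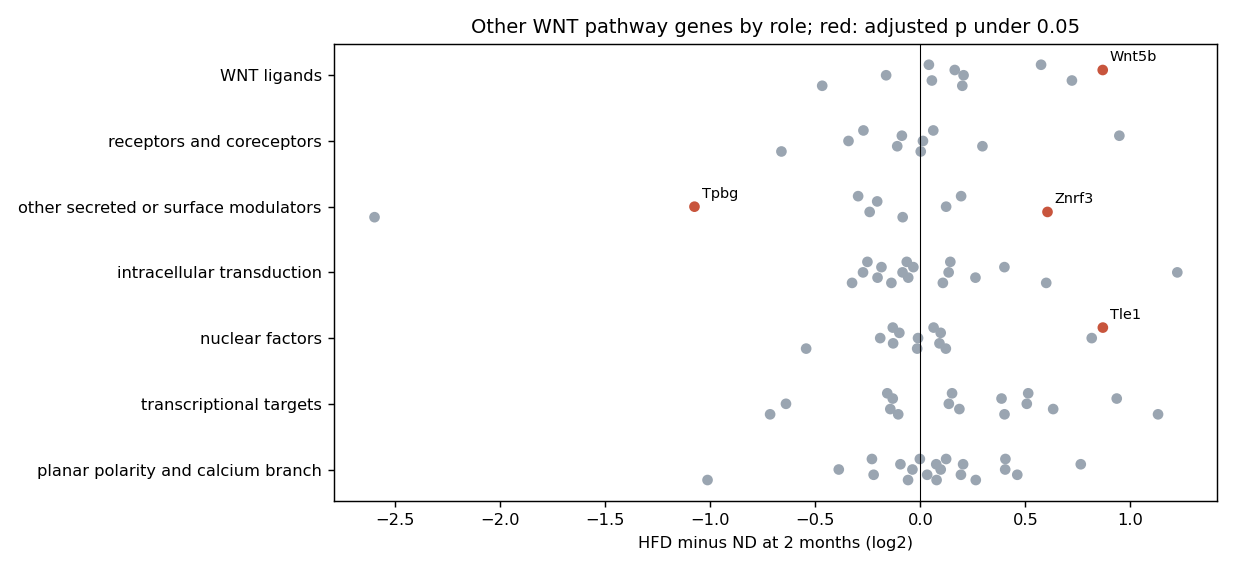
HFD minus ND log2 difference at 2 months of the 95 tested pathway genes outside the 9 members, each a point, by role; red points passed in limma (adjusted p under 0.05). Wnt5b, Znrf3 and Tle1 lie to the right at 0.87, 0.61 and 0.87, Tpbg to the left at -1.08, and the far left point that did not pass is Lgr5.

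At the other times no pathway gene passed in limma with equal array weights. At 1 month 0 of 95 passed and 11 had an unadjusted p under 0.05, beside 9.77% of all tested probe sets. The corepressor Tle4 stood at -0.77 ± 0.20 (SE, limma adjusted p = 0.234), the receptor Ryk at -0.30 ± 0.11 and the casein kinase Csnk1e at 0.44 ± 0.16. At 4 months 0 of 95 passed and 1, Ryk, had an unadjusted p under 0.05, beside 3.73% of all (-0.38 ± 0.11, limma adjusted p = 0.999). For Ryk, a WNT receptor related to receptor tyrosine kinases, the mean of 1 and 4 months was -0.34 ± 0.08 (limma adjusted p = 0.167), and it passed with array weights (-0.36, limma adjusted p = 0.0324), which called 1.24% of all probe sets there. From 1 to 4 months, over both diets, 0 of 95 passed and 26 had an unadjusted p under 0.05, beside 14.5% of all. Wls, the carrier that takes WNT proteins to the surface, stood at -0.74 ± 0.14 (limma adjusted p = 0.058), the Dishevelled-binding Dact3 at -0.42 ± 0.09 (0.083) and the receptor Fzd2 at -0.85 ± 0.21 (0.101), while the AP-1 gene Fosl1 stood at 1.06 ± 0.30 (0.135). The list median was -0.08 and that of all probe sets -0.01.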

How the data were processed

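RNA of 18 cultures was hybridised to Affymetrix rat arrays. The deposited values are probe set intensities on a linear scale, summarised with RMA per the submitters' processing notes, with version and background settings not given in the sources used here. Log2 was taken with no constant. In the deposited values the column of ND 1-month replicate 1 is displaced upward by 1343 rows. Moving it down raised its correlation with the other arrays' mean from 0.0909 to 0.990, and the first 1343 probe sets then have no value on that array. Array controls (57) and the dimmest 30% of other probe sets (mean at or below 3.22 log2, 9.34 linear) were left out.

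All 18 arrays entered 1 linear model of the 6 group means in limma 3.58.1, under R 4.3.3, with Benjamini-Hochberg adjustment over 21729 probe sets, two-sided, at 0.05. The procedure was tested on simulated data. Precision is limited by 3 arrays a group. Symbols came from the platform annotation. Members and gene lists were chosen with earlier results of these data known. A pathway gene is named where it passed, or, where none did, if it was among the 3 highest or 3 lowest by moderated t, of which some are printed; Lgr5, Myc and Tnfrsf11b were named after their values were seen. Genes most like Sfrp1 are the 6 highest and 6 lowest correlations. Residuals of arrays with the same replicate number correlated at -0.0254 on average over 45 pairs, from -0.57 to 0.66, so numbers were not treated as pairs. Alternatives covered the filter, quantile normalization, median centring, the replicate block, variance model, array weights, contrast arrays alone, averaged probe sets, the macrophage covariate and leaving out arrays.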

Additional observations from a re-analysis of the deposited data

Results flagged for a closer look

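Frzb separated the diets in opposite directions at 2 times. Every HFD array was below every ND array at 2 months (-1.24 log2 units), as for 12.9% of all tested probe sets. At 4 months every HFD array was above every ND array (0.34), as for 3.81% of all. The share that did both is not given here. The 4-month gap was narrow, with 3.28 as the highest ND and 3.31 as the lowest HFD array, near the filter limit of 3.22. The HFD mean at 2 months (3.13) and the ND mean at 4 months (3.07) lay under that limit. The Frzb difference between times was not tested, since the 2-month arrays took part in the choice of the genes. Axin2 also separated the diets in both directions. Its HFD arrays were all lower at 1 month (-0.53, 10.7% of all) and all higher at 2 months (0.43, 11.8%) and 4 months (0.21, 3.81%). At 4 months the highest ND array read 4.59 and the lowest HFD array 4.61. For Axin2 the change from 1 to 4 months was tested (0.74 ± 0.19 SE, limma adjusted p = 0.9995) and did not pass. The contrasts with 2 months were not tested.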

How the results depend on the processing

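In the comparisons open to a test, 0 members passed under every alternative except these. With array weights 1 member passed in HFD from 1 to 4 months (Dkk3), beside 2% of all tested probe sets. In the mean of both diets 2 passed with array weights (Dkk3 and Sfrp1 probe set 1382878_at), beside 8.16% of all. Leaving out arrays gave 0 to 1 in that mean. For pathway genes the 4 to 1 month mean gave 0 calls as reported, 1 each with the dimmest 50% left out, with medians centred, with the intensity trend and with contrast arrays alone, and 13 with array weights (1 higher, 12 lower). Leaving out arrays gave 0 to 8, with 8 when ND 2-month replicate 3 and ND 1-month replicate 1 were both left out and 4 when HFD 1-month replicate 2 was. The 4 calls at 2 months became 12 with array weights (9 higher, 3 lower; 19.9% of all probe sets were called there), 0 with the 6 contrast arrays alone, and 0 to 6 with arrays left out. The causes of these changes were not tested, and the share of all probe sets called with arrays left out is not given here. With the replicate block 10 of 11 counts were the same, and the pathway count at 2 months was 3 rather than 4. Of 2056 member values under alternatives, 101 had another sign than the reported value, which had not passed; 13 moved by over 1 replicate SD, 12 of them Sfrp4. Low intensity limits Sfrp2, Frzb, Lef1 and Znrf3.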
